A study of Homo sapiens with 12 samples.

Results

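TRIM (tripartite motif) proteins are a large family of mostly E3 ubiquitin ligases, built from a RING finger, B-box domains and a coiled coil. Type I interferons such as IFNα bind a receptor at the cell surface and switch on genes whose promoters carry an interferon-stimulated response element. A subset of TRIM genes belongs to that response, and their products bind incoming viruses or tune the pathways that sense viral RNA and DNA. The genes described here are 9 TRIM genes known for antiviral roles, chosen by symbol, out of 60099 genes in the deposited table. They are TRIM5, TRIM6, TRIM14, TRIM21, TRIM22, TRIM25, TRIM34, TRIM38 and TRIM56, and the 11 transcripts of TRIM22 were followed one by one.

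RNA of Cal27 and HN30, established head and neck squamous cell carcinoma (HNSCC) lines, was sequenced without IFNα and 24 h after addition of 20 or 200 ng/ml IFNα. The 12 samples carry the letters A to F and a replicate number. Letters A and D were controls without IFNα, B and E received the low dose of 20 ng/ml, and C and F the high dose of 200 ng/ml, with 2 samples per letter. Letters A, B and C cover the 3 doses, as do D, E and F. They are called line sets A-C and D-F here, because the sources used do not say which set is which line. Nothing in the labels says whether the 2 samples of a letter came from separate cultures, so p-values measure the spread between these samples, which may be technical.

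The total estimated count per sample lay between 10517448 and 16056734, and every control had a larger total than every sample at 200 ng/ml. Correlations of log2 CPM (counts scaled to library size) were 0.940 to 0.976 between samples of one line set and 0.678 to 0.718 between the sets. Of 10 epithelial marker genes, 9 were at 1 TPM or more in every sample. Of 6 leukocyte markers, 4 stayed under 1 TPM in every sample, with PTPRC at 0.0425 TPM or less and CD3E at 0. CD14 reached 2.29 TPM, and CD68 lay between 5.29 and 39.6 TPM and was higher at 200 ng/ml (log2 change 1.77, edgeR adjusted p = 4.33e-05). The summed leukocyte marker level was 5.34 to 12.5 TPM in controls and 18.6 to 40.6 TPM at 200 ng/ml, and its part in the TRIM results was not tested. The endothelial marker CDH5 reached 21.7 TPM, and the fibroblast marker COL1A1 lay between 3.43 and 13.0 TPM. In RNA from a whole culture, a larger share of responding cells and more RNA per cell cannot be told apart.

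Levels are given in TPM, a unit that corrects for transcript length and depth, as deposited. Changes are log2 fold changes of the estimated counts with their standard error, fitted with edgeR over all 19944 genes that passed its filter on low counts, all 9 TRIM genes among them. A gene passed the test at an adjusted p (Benjamini-Hochberg over all genes) of at most 0.05, and was called when it also changed at least 2-fold.

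Of the antiviral TRIM genes, 5 were called at 200 ng/ml, all higher: TRIM22, TRIM21, TRIM14, TRIM5 and TRIM38. TRIM34 and TRIM25 passed the test with changes just under 2-fold, and TRIM56 and TRIM6 did not pass. That is 5 of 9 called, against 2.14% of all genes tested (1.58% higher), and 7 of 9 passed, against 9.55% of all genes (4.98% higher). The median log2 change of the 9 genes was 1.15, and that of all genes was -0.01. At 20 ng/ml the same 7 genes passed, all higher (3.93% of all genes passed, 2.33% higher), and TRIM22, TRIM21 and TRIM14 were called (1.15% of all genes were, 0.963% higher). Within each line set 6 genes were called higher at 200 ng/ml, against 1.41% of all genes in A-C and 1.67% in D-F. In A-C the sixth was TRIM34 (1.08 ± 0.22, edgeR adjusted p = 0.022) and in D-F it was TRIM25 (1.02 ± 0.10, edgeR adjusted p = 0.00033). Those 7 genes had both samples at 200 ng/ml above both controls in each line set, which held for 8.55% of all genes, and the corresponding count at 20 ng/ml was also 7 (6.97% of all genes).

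**Figure D1:**
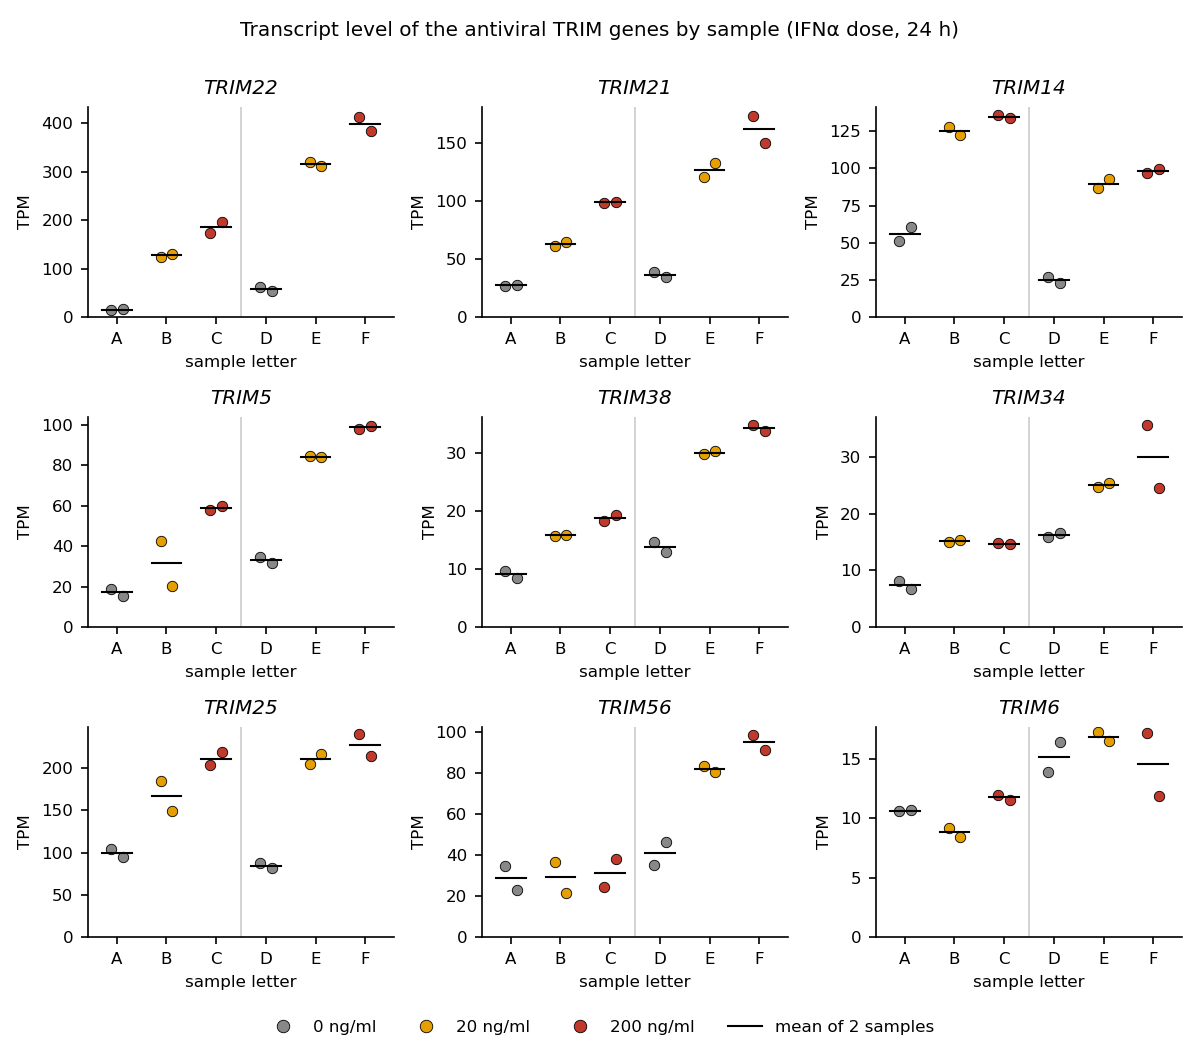
Level of each antiviral TRIM gene (TPM, y axis starting at 0) by sample letter, with controls in grey, 20 ng/ml in orange and 200 ng/ml in red; points are samples and bars the mean of 2 samples. TRIM22 rose from 13.9 to 15.7 TPM in A to 174 to 195 TPM in C, while TRIM6 stayed between 8.42 and 17.2 TPM in all 12 samples.

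TRIM22 (ENSG00000132274) lies on the plus strand of chromosome 11 at 5689689 to 5737089 (GRCh38.p10), beside its paralogues TRIM6, TRIM34 and TRIM5. Its product is a nuclear and cytoplasmic ligase known to restrict HIV-1 transcription and influenza A virus. In untreated cells it stood at 13.9 and 15.7 TPM in A and at 61.3 and 53.1 TPM in D. At 20 ng/ml it reached 125 and 130 TPM in B and 319 and 312 TPM in E. The values at 200 ng/ml were 174 and 195 TPM in C and 413 and 383 TPM in F. No sample of one dose overlapped another dose within a line set. TRIM22 had the largest change of the 9 genes, with a log2 change of 3.14 ± 0.09 (SE) at 200 ng/ml (8.82-fold, edgeR adjusted p = 2.17e-08) and of 2.79 ± 0.09 at 20 ng/ml (edgeR adjusted p = 6.01e-08). It ranked 110 from the top among 19944 genes ordered by log2 change at 200 ng/ml.

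The other genes of the chromosome 11 cluster were TRIM5, TRIM34 and TRIM6, of which TRIM5 had the largest change and TRIM6 did not pass the test. TRIM5 (ENSG00000132256, minus strand, 5663557 to 5938619) encodes a cytoplasmic protein that binds retroviral capsids. Its controls were at 19.0 and 15.5 TPM in A and 34.5 and 31.7 TPM in D. Samples at 20 ng/ml had 42.6 and 20.5 TPM in B and 84.8 and 83.9 TPM in E. Both replicates of B exceeded both controls, but they lay far apart, and their counts (493 and 387) were closer together than their TPM. At 200 ng/ml TRIM5 stood at 57.9 and 60.0 TPM in C and 98.2 and 99.7 TPM in F, a log2 change of 1.49 ± 0.17 (edgeR adjusted p = 0.0007). At 20 ng/ml the change was 0.38 ± 0.25 in A-C and 1.40 ± 0.24 in D-F. The change at 20 ng/ml over both sets was 0.89 ± 0.17 (edgeR adjusted p = 0.02). It no longer passed in 5 fits that left out 1 sample each (A2, B1, D1, D2 or E2), with adjusted p between 0.0536 and 0.0823.

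TRIM34 (ENSG00000258659, plus strand, 5619764 to 5644398), a paralogue of TRIM5, is known as a partner of TRIM5 in binding retroviral capsids. Controls had 8.06 and 6.63 TPM in A and 15.8 and 16.5 TPM in D. At 20 ng/ml the values were 15.0 and 15.3 TPM in B and 24.7 and 25.4 TPM in E. At 200 ng/ml they were 14.7 and 14.6 TPM in C and 35.6 and 24.5 TPM in F. Treated samples lay above the controls of their set without overlap. Both C samples lay just below both B samples, and E and F overlapped. The log2 change was 0.99 ± 0.15 at 200 ng/ml (edgeR adjusted p = 0.00361) and 0.92 ± 0.15 at 20 ng/ml (edgeR adjusted p = 0.0083). Leaving out A1, C2, D2 or F2 took the change at 200 ng/ml past 2-fold, up to 1.12.

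TRIM6 (ENSG00000121236, plus strand, 5596109 to 5612958) encodes a ligase that makes unanchored ubiquitin chains for the kinase IKBKE in interferon signalling. Its values were 10.6 and 10.7 TPM in A, 9.18 and 8.42 TPM in B and 11.98 and 11.6 TPM in C. In the other line set they were 13.9 and 16.4 TPM in D, 17.2 and 16.5 TPM in E and 17.2 and 11.9 TPM in F. In D-F the low dose lay just above the controls and the high dose overlapped both, and in A-C the low dose was below and the high dose above the controls. Over both line sets the log2 change at 200 ng/ml was -0.15 ± 0.23 (95% interval -0.66 to 0.37, edgeR adjusted p = 0.781). A change of 2-fold in either direction lay outside that interval. In A-C alone the interval was -0.70 to 0.77, and in D-F alone it was -1.045 to 0.397, which includes a 2-fold fall.

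Reads in this cluster could be shared between overlapping genes. The libraries kept the strand, but whether counting used it is not given in the sources used here. The span of TRIM5 overlaps TRIM22 on the opposite strand, although 9 of its 11 transcripts end before TRIM22 and held 97.4% to 100% of the TRIM5 counts. TRIM6 and TRIM34 lie within the span of HBG2 on the opposite strand, which had at most 23 counts in a sample. The TRIM6-TRIM34 read-through gene was listed at 0 in all 12 samples, so read-through RNA was not counted apart from TRIM6 and TRIM34. The leading TRIM34 transcript held from 0 to 69.3% of the TRIM34 counts, so the division of its reads between transcripts was not stable between samples. Within 250 kb of the cluster the table held 45 further genes, of which 22 had any count and 6 passed the filter, and the smallest edgeR adjusted p among these 6 at 200 ng/ml was 0.243.

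TRIM21 (ENSG00000132109, chromosome 11, minus strand, 4384897 to 4393696) is a cytosolic receptor for antibodies that targets antibody-coated viruses for degradation. It had 26.9 and 27.7 TPM in A and 38.9 and 34.4 TPM in D. At 20 ng/ml it had 61.1 and 64.5 TPM in B and 121 and 133 TPM in E. At 200 ng/ml it had 98.02 and 99.6 TPM in C and 174 and 150 TPM in F. Every dose was separated from the next in both line sets. The log2 change was 1.97 ± 0.08 at 200 ng/ml (edgeR adjusted p = 1.67e-07) and 1.48 ± 0.07 at 20 ng/ml (edgeR adjusted p = 1.83e-06).

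A further group acts in the signalling that follows detection of viral RNA and DNA. TRIM14 (ENSG00000106785, chromosome 9, minus strand, 98069275 to 98119212) lacks a RING finger and acts as an adaptor at mitochondria with MAVS. Its controls had 51.2 and 60.4 TPM in A and 27.0 and 23.0 TPM in D. Treated samples had 128 and 122 TPM in B, 136 and 134 TPM in C, 86.8 and 92.7 TPM in E and 96.6 and 99.4 TPM in F. Most of the rise was already present at 20 ng/ml, where the log2 change was 1.45 ± 0.08 (edgeR adjusted p = 4.52e-06), against 1.59 ± 0.08 at 200 ng/ml (edgeR adjusted p = 1.75e-06). NANS overlaps the 3′ end of the TRIM14 span on the opposite strand, and the leading TRIM14 transcript, which lies outside NANS, held 95.8% to 98.9% of the TRIM14 counts.

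TRIM25 (ENSG00000121060, chromosome 17, minus strand, 56887909 to 56914038) is a ligase for the RNA sensor RIG-I and a cofactor of the antiviral zinc finger protein ZC3HAV1. It was the highest of the 9 genes in untreated cells, at 104 and 94.7 TPM in A and 87.3 and 81.9 TPM in D. At 20 ng/ml it had 185 and 149 TPM in B and 204 and 217 TPM in E, and at 200 ng/ml 203 and 219 TPM in C and 241 and 215 TPM in F. Treated samples were above the controls of their set, and E and F overlapped. The log2 change was 0.90 ± 0.07 at 200 ng/ml (edgeR adjusted p = 6.41e-05) and 0.72 ± 0.07 at 20 ng/ml (edgeR adjusted p = 0.000414). In mean TPM, C was 2.13 times A and F was 2.69 times D. By fitted counts TRIM25 changed 1.71-fold in A-C, 2.03-fold in D-F and 1.87-fold over both sets. It thus fell under 2-fold by counts in A-C and over both sets, but not by TPM.

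TRIM38 (ENSG00000112343, chromosome 6, plus strand, 25962802 to 25991226) is known as a regulator that limits Toll-like receptor signalling. It was the gene with the smallest standard error, 0.06. Controls had 9.66 and 8.53 TPM in A and 14.6 and 12.9 TPM in D. Samples at 20 ng/ml had 15.8 and 15.9 TPM in B and 29.8 and 30.4 TPM in E, and samples at 200 ng/ml 18.3 and 19.3 TPM in C and 34.9 and 33.7 TPM in F. All doses were separated in both sets. Its log2 change was 1.15 ± 0.06 at 200 ng/ml (edgeR adjusted p = 1.67e-06) and 0.93 ± 0.06 at 20 ng/ml (edgeR adjusted p = 1.08e-05).

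TRIM56 (ENSG00000169871, chromosome 7, plus strand, 101085439 to 101097967) is a ligase linked to STING and cGAS signalling. In line set A-C it had 34.5 and 23.0 TPM in A, 36.7 and 21.3 TPM in B and 24.5 and 38.2 TPM in C, and all 3 doses overlapped. In line set D-F it had 35.2 and 46.3 TPM in D, 83.3 and 80.2 TPM in E and 98.3 and 91.2 TPM in F, with no overlap between doses. The log2 change at 200 ng/ml was 0.13 ± 0.34 in A-C and 1.09 ± 0.34 in D-F, and over both sets 0.61 ± 0.24 (edgeR adjusted p = 0.157). The difference between the sets, 0.96 ± 0.48, did not pass the test (edgeR adjusted p = 0.338).

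**Figure D2:**
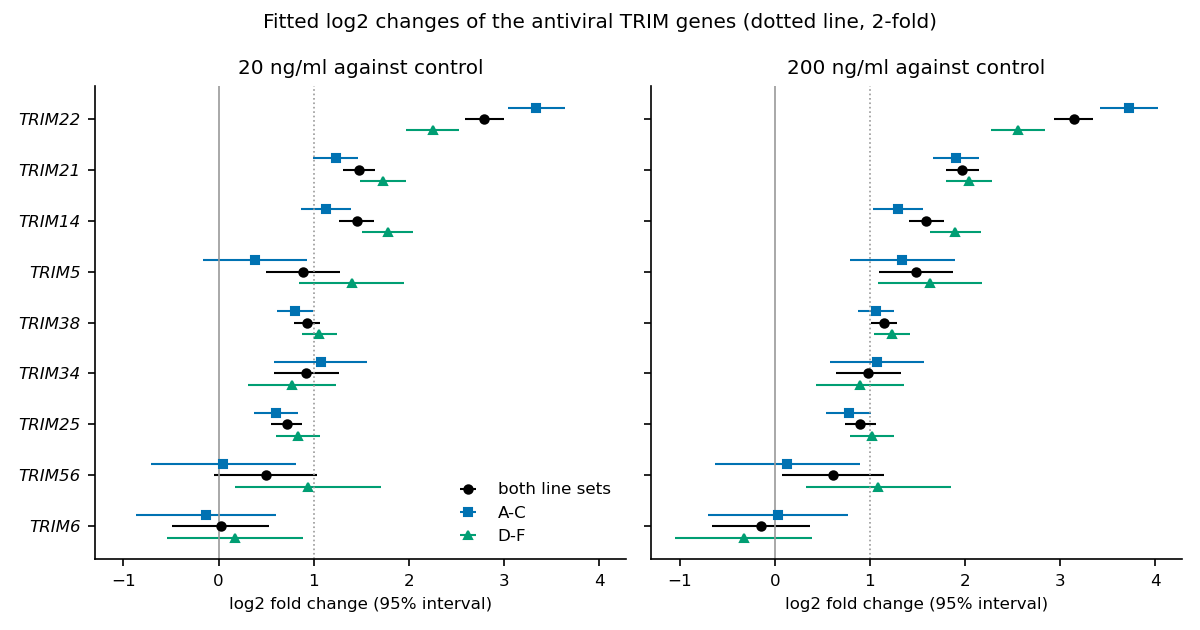
Fitted log2 fold change against control (x axis) of each antiviral TRIM gene at 20 ng/ml (left) and 200 ng/ml (right), with 95% intervals, for both line sets together (black circles), A-C (blue squares) and D-F (green triangles); the dotted line marks 2-fold. TRIM22 stands apart at 3.72 in A-C and 2.56 in D-F at 200 ng/ml, and the intervals of TRIM6 include 0.

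For the 7 genes that passed at both doses, the difference between 200 and 20 ng/ml over both line sets was smaller than the change from control to 20 ng/ml. In A-C alone TRIM5 had the reverse order. Its change there was 0.38 ± 0.25 from control to 20 ng/ml and 0.95 ± 0.24 between the doses (edgeR adjusted p = 0.156). With edgeR 0 of the 9 genes were called between the doses (0.0451% of all genes were) and 1 passed (0.135% of all genes), namely TRIM21 with a log2 difference of 0.49 ± 0.07 (edgeR adjusted p = 0.0451). Leaving out any 1 sample other than C1 raised its adjusted p above 0.05, up to 0.191. At an unadjusted p under 0.05, 5 genes differed (TRIM21, TRIM22, TRIM38, TRIM5 and TRIM25), all higher at 200 ng/ml, and 4.35% of all genes were higher at that p. DESeq2 called 0 of the 9 and passed TRIM21 and TRIM22 (0.837% of all genes passed). TRIM22 had a difference of 0.35 ± 0.08 (edgeR adjusted p = 0.248), TRIM5 of 0.59 ± 0.17 (edgeR adjusted p = 0.326) and TRIM14 of 0.14 ± 0.08 (edgeR adjusted p = 0.625).

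The line sets were then compared, first without IFNα. D exceeded A in TRIM22 by a log2 difference of 2.11 ± 0.13 (edgeR adjusted p = 1.63e-06) and in TRIM34 by 1.12 ± 0.22 (edgeR adjusted p = 0.00219). TRIM14 was lower in D, with a log2 difference of -1.39 ± 0.12 (edgeR adjusted p = 1.31e-05). These 3 of 9 called genes stand against 26.6% of all genes called between the untreated sets, and the 6 of 9 that passed against 46.4%, so a difference between untreated sets was common among all genes. TRIM38 (0.47 ± 0.08), TRIM21 (0.33 ± 0.11) and TRIM25 (-0.37 ± 0.10) passed with smaller differences. TRIM34 fell just under 2-fold without A2 (0.98) or D2 (0.83). TRIM21 passed in 12 of 18 alternatives and missed the threshold in the rest, among them the fits without A1, A2 or D1. TRIM25 passed in 15 of 18 and missed it in the rest, among them the fits without A2 or D2. TRIM5 was 1.92 times as high in D as in A in mean TPM, but its counts differed by a log2 value of 0.20 ± 0.24 (edgeR adjusted p = 0.538).

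TRIM22 was also the gene whose response to IFNα differed between the sets. Its log2 change at 200 ng/ml was 3.72 ± 0.13 in A-C and 2.56 ± 0.12 in D-F, a difference of -1.17 ± 0.17 (edgeR adjusted p = 0.0136), where 0.998% of all genes were called (0.376% with the smaller change in D-F). At 20 ng/ml it was 3.34 ± 0.13 and 2.25 ± 0.12, a difference of -1.09 ± 0.17 (edgeR adjusted p = 0.035), where 0.231% of all genes were called (0.0652% with the smaller change in D-F). The set with the lower untreated level thus had the larger fold, while the level reached was higher in D-F at each dose. At 200 ng/ml the difference lost its call without F2 (adjusted p = 0.0717) and when only the letters compared were fitted (adjusted p = 0.0535), and it fell under 2-fold without A2 (-0.98). At 20 ng/ml it missed the threshold in 10 of 18 alternatives, among them the fits without A2, B1, B2, D1, E1, E2, F1 or F2, with values between -0.91 and -1.29. No other member passed this test: TRIM14 had a difference of 0.60 ± 0.16 at 200 ng/ml (edgeR adjusted p = 0.1), in the opposite direction. TRIM5 had one of 1.01 ± 0.34 at 20 ng/ml (edgeR adjusted p = 0.322), also with the larger change in D-F.

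The order of the levels changed with IFNα in both line sets, but TRIM22 became the highest gene only in D-F. Among untreated A samples TRIM25 was highest (mean 99.4 TPM), followed by TRIM14 (55.8 TPM). TRIM22 (14.8 TPM) was sixth in A, with a range that overlapped that of TRIM5. Among C samples TRIM25 was still highest (211 TPM), followed by TRIM22 (185 TPM) without overlap. Among untreated D samples TRIM25 was highest (84.6 TPM), and TRIM22 (57.2 TPM) already followed it, also without overlap. Among F samples TRIM22 was highest (398 TPM), followed by TRIM25 (228 TPM) and TRIM21 (162 TPM), without overlap between these neighbours. TRIM5, TRIM14 and TRIM56 followed at 98.9, 98.01 and 94.8 TPM with overlapping ranges, and TRIM6 was last (14.5 TPM). The summed level of the 9 genes rose from 270 to 765 TPM between A and C and from 322 to 1158 TPM between D and F. The part of TRIM22 in that sum was 5.48% in A, 24.1% in C, 17.7% in D and 34.3% in F.

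The TRIM22 gene is annotated with 11 transcripts: 7 protein coding, 3 with a retained intron and 1 marked for nonsense-mediated decay. All 11 had the same start and end in GENCODE release 29 as in the deposited table. TRIM22-201 (ENST00000379965), the coding transcript with 8 exons, and TRIM22-209 (ENST00000460454), a noncoding retained intron transcript of 926 bases, were the most abundant at 200 ng/ml. TRIM22-209 has exons at 5689821 to 5689899 and 5696167 to 5697013. Its second exon starts with exon 2 of TRIM22-201, which ends at 5696655, and runs on into the next intron of 592 bases, of which it keeps 358 (60.5%). The border is printed because it is where TRIM22-209 leaves the coding transcript. Lower case is exon 2 of TRIM22-201 and capitals are the first retained intron bases (chr11:5696626-5696685, plus strand, GRCh38), and the primers that the study designed against TRIM22-209 follow, 5′ to 3′.
TRIM22-209 exon and intron border: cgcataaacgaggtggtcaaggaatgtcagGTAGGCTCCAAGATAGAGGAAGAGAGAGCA
Forward primer: ttattccccttgtcaccatagaa
Reverse primer: tgtccttcaggcatcagaaacta
Both primers lie within the retained intron, at chr11:5696737-5696759 and chr11:5696796-5696818, and bound an amplicon of 82 bases. Neither was found in another annotated TRIM22 transcript or in an annotated transcript of another gene. Unspliced TRIM22 RNA, which holds the whole intron, was not among the sequences searched. Reads from it in the retained part cannot be told apart from reads of TRIM22-209. How much it adds to the level, change and share of TRIM22-209 given below was not tested. Of the words of 31 bases in TRIM22-209, 60.2% also occur in other TRIM22 transcripts, and 0 of those that lie in its retained part do. A read from the shared part can be assigned to more than one transcript, so the counts of single transcripts are estimates.

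**Figure D3:**
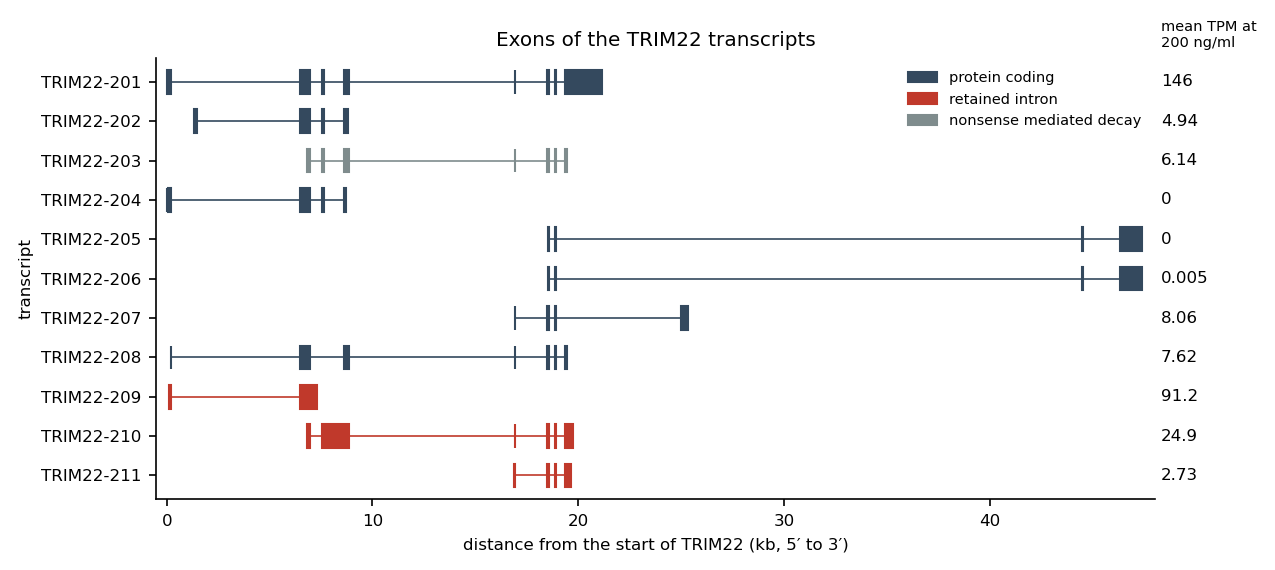
Exons (boxes) of the 11 TRIM22 transcripts by distance from the start of the gene in kb, 5′ to 3′, with protein coding transcripts in dark blue, retained intron transcripts in red and the nonsense-mediated decay transcript in grey; the number at the right is the mean TPM of the 4 samples at 200 ng/ml. TRIM22-201 (146 TPM) and TRIM22-209 (91.2 TPM) held most of the signal, and TRIM22-209 ends within the intron after exon 2.

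Transcripts were tested over 75876 that passed the filter, 8 of the 11 TRIM22 transcripts among them. TRIM22-204 was listed at 0 in every sample, and TRIM22-205 and TRIM22-206 had at most 2 counts. At 200 ng/ml 4 TRIM22 transcripts were called, all higher, against 0.494% of all transcripts (0.343% higher), and at 20 ng/ml 3 were (0.303% of all transcripts, 0.24% higher).

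TRIM22-201 had 8.36 and 4.93 TPM in A and 38.6 and 30.9 TPM in D. It had 80.9 and 71.1 TPM in B and 163 and 162 TPM in E at the low dose, and 93.1 and 88.4 TPM in C and 207 and 194 TPM in F, a log2 change of 3.06 ± 0.16 (edgeR adjusted p = 0.000278). TRIM22-209 had 3.64 and 4.26 TPM in A and 9.43 and 8.22 TPM in D. With 20 ng/ml it had 20.9 and 35.5 TPM in B and 94.0 and 97.3 TPM in E, and with 200 ng/ml 48.7 and 61.0 TPM in C and 130 and 125 TPM in F. The doses did not overlap within a line set, and the log2 change was 3.05 ± 0.23 at 20 ng/ml (edgeR adjusted p = 0.00188) and 3.71 ± 0.23 at 200 ng/ml (edgeR adjusted p = 0.000622). TRIM22-210 (ENST00000480395), the second retained intron transcript, had 0.83 to 7.28 TPM in controls and 10.54 to 41.4 TPM at 200 ng/ml, with a log2 change of 2.75 ± 0.25 (edgeR adjusted p = 0.00375). TRIM22-207 (ENST00000450670), a short coding transcript, had 0, 2, 3 and 2 counts in the controls and 24, 48, 17 and 19 counts at 200 ng/ml. Its fitted log2 change of 4.24 (95% interval 2.76 to 5.72, edgeR adjusted p = 0.0391) rests on those few control counts, and it was called in 5 of 18 alternatives.

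Differences between the line sets in the change of single TRIM22 transcripts at 200 ng/ml did not pass the test, which 0.0514% of all transcripts did. TRIM22-201 had a log2 change of 3.73 in A-C and 2.40 in D-F (difference -1.33 ± 0.31, edgeR adjusted p = 0.365), and TRIM22-209 one of 3.70 and 3.71 (difference 0.01 ± 0.56, edgeR adjusted p = 1).

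TRIM22-209 made up 26.1% and 27.2% of the TRIM22 TPM in A and 15.4% and 15.5% in D. The shares were 16.7% and 27.4% in B, 29.5% and 31.2% in E, 27.9% and 31.2% in C and 31.5% and 32.8% in F. Shares in D were the lowest, and those of C and F lay above all controls. Over the line sets the share was 9.81 percentage points higher at 200 ng/ml than in controls (2.92 points in A-C and 16.7 points in D-F). A two-sided exact permutation test within line sets gave p = 0.0556, the smallest that its 36 arrangements allow. At 20 ng/ml the difference was 5.17 points (-4.58 in A-C and 14.9 in D-F, exact permutation p = 0.222). By estimated counts in place of TPM the difference at 200 ng/ml was 4.17 points (exact permutation p = 0.167). The 3 retained intron transcripts together held 38.0% ± 10.9 (SD, n = 4) of the TRIM22 TPM in controls and 39.8% ± 3.34 (SD, n = 4) at 200 ng/ml.

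**Figure D4:**
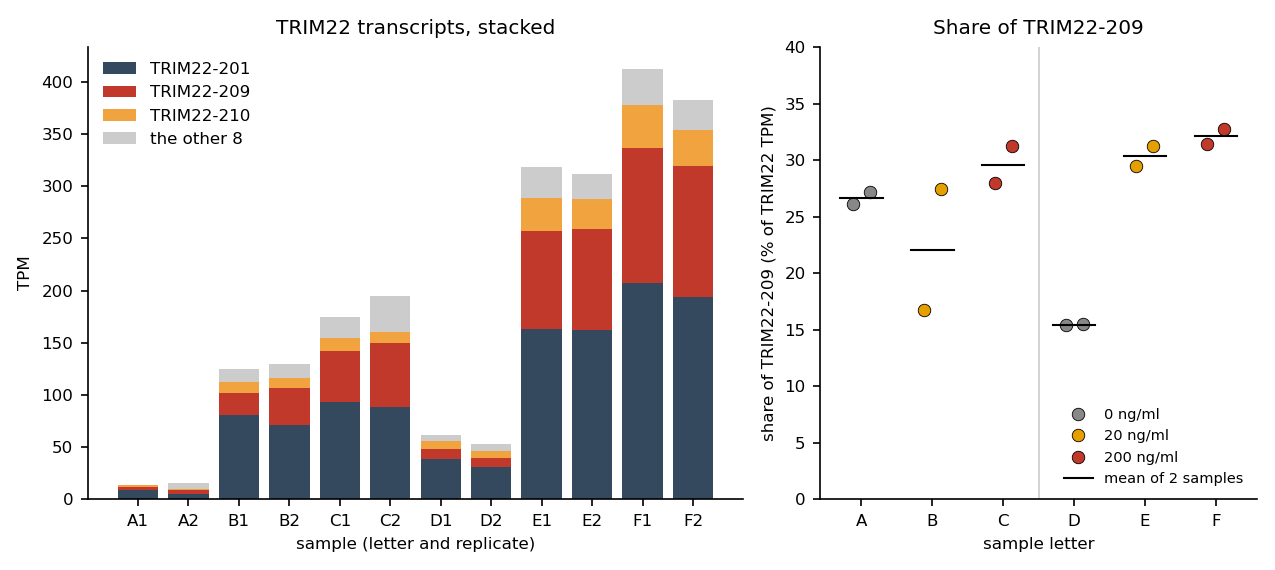
Left, TPM of the TRIM22 transcripts stacked by sample, with TRIM22-201 in dark blue, TRIM22-209 in red, TRIM22-210 in orange and the other 8 in grey. Right, the share of TRIM22-209 in the TRIM22 TPM (percent) by sample letter, with points for samples and bars for the mean of 2; the share was 15.4% and 15.5% in D and between 27.9% and 32.8% in C and F.

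Among transcripts of the other members, 1 of 4 tested was called higher at 200 ng/ml for TRIM14, 1 of 2 for TRIM21, 1 of 1 for TRIM38 and 2 of 8 for TRIM5, against 0.343% of all transcripts called higher. For TRIM14, TRIM21 and TRIM38 it was the leading transcript, with log2 changes of 1.54 ± 0.11, 1.92 ± 0.11 and 1.09 ± 0.08. The called TRIM5 transcripts included its leading one (1.47 ± 0.22), which held 17.2% to 35.4% of the TRIM5 counts. The transcripts of TRIM25, TRIM34, TRIM56 and TRIM6 did not pass.

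The promoters of these genes were read because most of the genes moved together. RefSeq start sites (GRCh38.p14) were matched for 8 of the 9 genes (all except TRIM22), TRIM34 with 2, each window running from 250 bases before to 50 after the start. The ISRE core GAAANNGAAA occurred on either strand in 4 of the 8 genes (TRIM5, TRIM14, TRIM21 and TRIM34), against 3.57% of 35116 promoters. A gene was counted when any of its windows held a match, whereas each of the 35116 promoters was a single window. The window at the other TRIM34 start did not hold the ISRE core. A shorter IRF core, AANNGAAA, which is part of the first and so overlaps every match of it, was added after the windows had been read, and it occurred in 7 of the 8 genes, against 22.8% of promoters. TRIM6 was the gene without it. TRIM6 and TRIM56 did not pass the test at either dose, and TRIM56 holds 2 matches of the shorter core. A match is a description of letters in the window, and no binding was measured here. The stretches with the matches nearest the start are shown on the strand of the gene, with the letters of overlapping or neighbouring matches in capitals.
TRIM21: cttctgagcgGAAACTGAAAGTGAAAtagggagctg
TRIM14: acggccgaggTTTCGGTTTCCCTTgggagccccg
TRIM5: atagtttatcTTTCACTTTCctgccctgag
TRIM34: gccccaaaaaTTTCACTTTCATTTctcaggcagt
TRIM38: cccacagtagTTTCACTTctcagtttaa
TRIM25: tcgagctaggTTTCGTTTcctcggcggc
TRIM56: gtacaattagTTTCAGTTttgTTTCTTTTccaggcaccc
These lie at chr11:4393660-4393695, chr9:98119225-98119258, chr11:5685082-5685111, chr11:5624901-5624934, chr6:25962764-25962791, chr17:56914035-56914062 and chr7:101085467-101085505, in that order. The first 4 hold the longer core, and TRIM21 holds 2 overlapping copies that begin 18 and 24 bases after the start. In TRIM5, TRIM14 and TRIM38 the match begins 27, 26 and 28 bases before the start, and in TRIM34 it begins 90 bases before it. TRIM38, TRIM25 and TRIM56 hold the shorter core alone.

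Of 61 other TRIM family genes in the table, 42 passed the filter, and 4 passed the test higher and 2 lower at 200 ng/ml, which is 14.3% against 9.55% of all genes. Of the 42, 3 were called, all higher, against 2.14% of all genes. Their median log2 change was -0.01, the same as that of all genes to 2 decimals. The called genes included TRIM69 (1.74 ± 0.12, edgeR adjusted p = 1.67e-05) and PML (1.06 ± 0.05, edgeR adjusted p = 6.37e-07), the organiser of PML nuclear bodies. The rise of PML was larger in D-F than in A-C, by 0.54 ± 0.10 (edgeR adjusted p = 0.0295). TRIM15 was also called (edgeR adjusted p = 0.0437), but it had 12 and 18 counts in A, 21 and 10 in C, 0 in both D samples and 4 and 11 in F. Its call was lost without any 1 sample other than E1 or E2, and TRIM32 (higher), TRIM39 (lower) and TRIM55 (higher) were each called in 1 of those fits. DESeq2 called TRIM69 and PML alone. TRIM26 rose by 0.50 ± 0.07, and TRIM2 (-0.46 ± 0.08) and TRIM29 (-0.33 ± 0.06) fell.

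Of 26 genes that work with these TRIM proteins as sensors, adaptors, kinases or substrates, 8 passed the test higher and 2 lower, which is 38.5% against 9.55% of all genes, with a median log2 change of 0.13. The RNA sensors DDX58, the RIG-I that TRIM25 modifies, and IFIH1 rose by 2.83 ± 0.06 and 2.75 ± 0.07. IRF7, a transcription factor for interferon genes, rose by 2.81 ± 0.16, and TLR3, an endosomal receptor for double-stranded RNA, by 1.86 ± 0.18. The edgeR adjusted p of these 4 lay at or under 0.000207. ZC3HAV1 (0.79 ± 0.06), MB21D1, which encodes cGAS (0.62 ± 0.11), IKBKE (0.46 ± 0.08) and TBK1 (0.43 ± 0.07) passed under 2-fold. The change of IKBKE was larger in D-F than in A-C by 1.05 ± 0.17 (edgeR adjusted p = 0.0212), so its average covers unlike changes in the line sets. That of IFIH1 was larger in D-F by 0.78 ± 0.14 (edgeR adjusted p = 0.0314). No other partner gene passed this test of the line sets, in which 0.998% of all genes were called. MAVS, the mitochondrial adaptor used by TRIM14, was lower (-0.45 ± 0.05), as was PPIA, the cyclophilin that binds HIV-1 capsid (-0.27 ± 0.04).

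**Figure D5:**
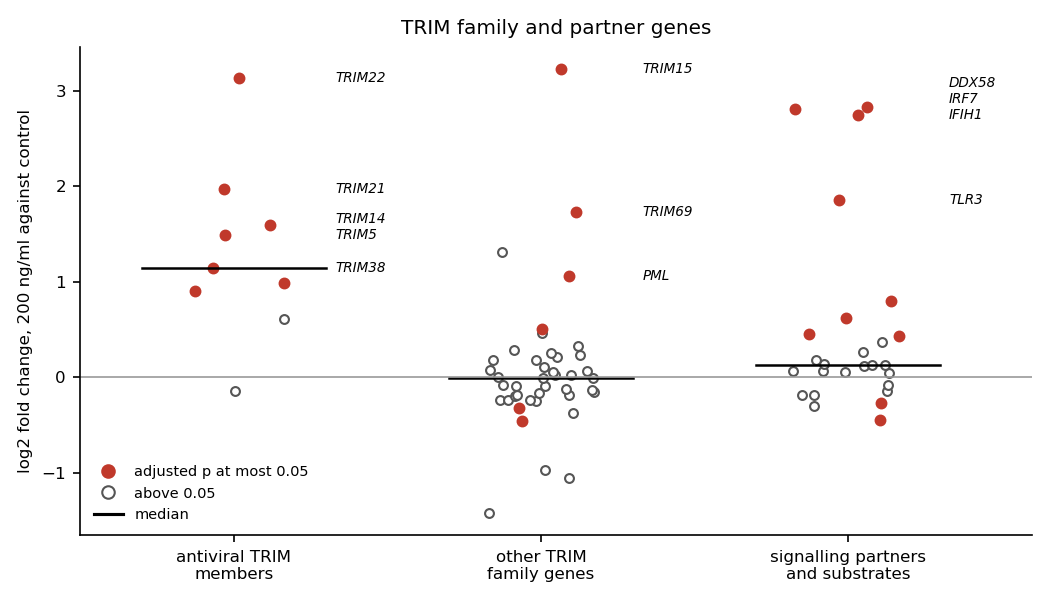
Log2 fold change at 200 ng/ml against control (y axis) of the 9 antiviral TRIM genes, 42 other TRIM family genes and 26 partner genes; filled red points passed an adjusted p of at most 0.05, open points did not, bars are medians and genes called at 2-fold or more are named, TRIM15 among them on few counts. The medians were 1.15, -0.01 and 0.13.

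Genes whose levels followed those of TRIM22, TRIM21 and TRIM25 most closely were found by Pearson's r of log2 CPM over the 12 samples, which share line set and dose. For TRIM22 they were LNPEP (r = 0.979), TYMP (r = 0.978) and an assembled locus without a gene name (r = 0.977). For TRIM21 they were GBP4 (r = 0.992), SAMHD1 (r = 0.986) and DDX60 (r = 0.985). For TRIM25 they were PARP9 (r = 0.982), ADAR (r = 0.981) and MX2 (r = 0.980). Likeness in pattern did not mean likeness in size, since LNPEP rose by a log2 change of 0.59 and TYMP by 2.77 at 200 ng/ml, where TRIM22 rose by 3.14.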

How the data were processed

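The authors sequenced rRNA-depleted, strand-specific libraries of 12 samples on the HiseqXTen platform. The submitters' processing notes name Trimmomatic 0.36, HISAT2 2.1.0, StringTie 1.3.3b and the build GRCh38.p10, and the annotation release is not given in the sources used here. The authors deposited estimated counts per gene and transcript, whole numbers without scaling. The deposited TPM values had been scaled by the authors for length and depth. Depth of 10517448 to 16056734 counts per sample and 2 samples per letter limit the precision.

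Samples were grouped by dose from their titles and the description of the design. The 9 members and all gene lists were chosen with earlier results of these data known. Estimated counts were fitted with edgeR 4.0.16 in R 4.3.3 (TMM, filterByExpr, quasi-likelihood test, 6 letters, Benjamini-Hochberg). Contrasts were averaged over both line sets. A call needed an adjusted p of at most 0.05 and a change of at least 2-fold. The standard error is the log2 change divided by the square root of F. DESeq2 1.42.0 was an alternative, beside other scalings, no filter, only the letters compared, other thresholds, the replicate number as a block and each sample left out. On simulated data for 200 ng/ml against control, edgeR recovered 156 of 200 changed genes of 19944, with 6 false calls, and 40 of 200 transcripts of 75876, with 0 false calls. The changed genes were drawn from all tested genes, but the changed transcripts only from those with a spread below the median. The simulated line sets did not differ, and the gene and transcript counts cannot be compared with each other.

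Another promoter motif was searched and is not reported here. Exons and sequences came from GENCODE release 29 and RefSeq promoters (GRCh38.p14), and primers from the study's supplementary list. Named genes were all members, the called genes of the other lists (at most 6 each) and the 3 genes most like TRIM22, TRIM21 and TRIM25. Figures were drawn with matplotlib 3.10.9, and tables and permutation tests were made with numpy 2.4.6 and pandas 2.3.3 (Python 3.11.15).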

Additional observations from a re-analysis of the deposited data

Results flagged for a closer look

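The response of TRIM22 differed between the line sets: the log2 effect in D-F minus that in A-C was -1.17 at 200 ng/ml and -1.09 at 20 ng/ml, tested as an interaction in edgeR (adjusted p = 0.0136 and 0.035).

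Single samples that stood away from the other 3 of their dose were found with Dixon's test in 5 of 58 sets of 4 values, where chance gives about 1 in 20, or 2.9, for values from a single population. Each set held 2 samples of each line set, so that count is a rough guide only. TRIM6 at 200 ng/ml was at 17.2 TPM in F1, with the others between 11.6 and 11.98 TPM. TRIM22-207 at 200 ng/ml was at 15.3 TPM in C2, with the others between 5.02 and 6.45 TPM. The remaining 3 were transcripts close to 0: TRIM22-206 at 0.13 TPM in B2 and 0.01 TPM in D1, and TRIM22-205 at 0.04 TPM in B2, each with the other 3 samples of its dose at 0.01 TPM or less.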

How the results depend on the processing

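The count of members called at 200 ng/ml was 5 in each other fit and 5 to 6 with 1 sample left out, and at 20 ng/ml 3 and 3 to 4. With an adjusted p of at most 0.05 and no fold threshold, 7 members passed at 20 ng/ml, 1 at 200 against 20 ng/ml, 6 between the untreated sets, 6 other TRIM family genes and 10 partners. Leaving out 1 sample gave 0 calls between the doses, 2 to 3 between D and A, 0 to 1 for the line set difference at each dose, 3 to 4 TRIM22 transcripts at 200 ng/ml and 2 to 4 at 20 ng/ml, 2 to 3 other TRIM family genes and 4 partners. The line set difference went from 1 call to 0 at both doses when only the letters compared were fitted, and at 20 ng/ml it was 2 at an unadjusted p of at most 0.05. DESeq2 called 5 TRIM22 transcripts at 20 ng/ml, and an unadjusted p gave 6. The cause was not tested.

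Samples that share a replicate number did not deviate together (r from -0.051 to 0.059 over 13033 genes), so the numbers were not taken to pair samples. With the replicate number as a block, 0 members were called for the line set difference at 20 ng/ml, 2 between D and A, 3 TRIM22 transcripts at 200 ng/ml and 2 at 20 ng/ml, and 2 other TRIM family genes. The block left the counts of members called at either dose at 5 and 3.

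Signs turned only in values near 0. With 1 sample left out, TRIM6 ranged from -0.43 (without F1) to 0.052 (without F2) at 200 ng/ml and from -0.13 to 0.15 (without E2) at 20 ng/ml. At 20 ng/ml it was -0.06 without A2, -0.05 without B2, -0.06 without D1, -0.13 without E1 and -0.0010 with the replicate block, against 0.02. TRIM5 between D and A ranged from -0.030 (without A2) to 0.46 (without A1). The share of TRIM22-209 rose by 4.17 points by counts and by 8.99 to 10.6 points with 1 sample left out. The small number of samples per letter and the wide spread of transcript counts (common biological coefficient of variation 0.837, against 0.196 for genes) limit what the transcript tests can show.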
